A study of Bos taurus with 129 samples.

Results

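The 10 core genes of the circadian clock, ARNTL (also called BMAL1), CLOCK, PER1, PER2, PER3, CRY1, CRY2, NR1D1, NR1D2 and DBP, were followed in the whole blood of 26 crossbred beef steers over 60 days. The members were chosen by symbol, and each symbol matched 1 of the 32395 genes counted. All 10 were among the 18937 genes that passed the filter on low counts. Levels are given as counts scaled to library size (CPM), with library sizes adjusted by the trimmed mean of M values (TMM).

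The steers arrived after road transport and were fed 1 of 3 trace mineral programs. INR cattle (11 animals) received copper, cobalt, manganese and zinc in sulfate form, and AAC cattle (8) received amino acid-complexed minerals. COMBO cattle (7) received the complexed minerals together with an oral drench, given before shipment, on day 0 and with any treatment for illness. In the labels, 12 steers had no disease (healthy; 4 in each program) and 14 had bovine respiratory disease, BRD (7 INR, 4 AAC and 3 COMBO). In the study's methods, the 12 were neither diagnosed with nor treated for clinical BRD in the 60 days. An animal's label is the same on each day, so the BRD label does not say that it was ill when bled. All cattle shared arrival handling, vaccination and deworming, and no group went unsupplemented. Blood was drawn from the same animals on day 0, when they entered the pens, and at days 13, 28, 45 and 60. In the study's methods, day 0 is the day after arrival. There were 26 libraries a day and 25 at day 13, since the day 13 library of AAC animal 48 was removed by the authors. The hour of collection is not given in the sources used here, so no level could be placed on the daily cycle. For the same reason, a difference between days cannot be told apart from a difference in hour.

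In mammalian cells, ARNTL and CLOCK form a dimer that switches on the PER, CRY, NR1D and DBP genes. The PER and CRY proteins then return to the nucleus and repress that dimer, while NR1D1 and NR1D2 (REV-ERB alpha and beta) repress transcription of ARNTL, and DBP drives output genes through D-box elements. Most tissues, blood leukocytes included, carry this loop, and PER1 is in addition a known direct target of the glucocorticoid receptor, through which cortisol acts.

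Total counts per library ranged from 31613545 to 61692136 (median 44268685). The lowest count of any member in any library was 59, for PER2. The libraries of animals 50 and 21 at day 13 had the lowest median correlation with the other libraries (0.943 and 0.949, against 0.970 for the highest), and the number of members called was the same without them in each comparison. Defining markers of T cells, B cells, neutrophils, monocytes, eosinophils, NK cells, red cells and platelets were detected, as whole blood requires, with CSF3R, TRAC, SIGLEC14, EPX, GNLY and GP1BB not among the gene names of the table.

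The first question was whether the clock genes differed between days in the same animals. Against day 0, edgeR's quasi-likelihood test with the animal as a block called 5 members at day 13 (4 higher, 1 lower), 4 at day 28 (3 higher, 1 lower), 4 at day 45 (1 higher, 3 lower) and 5 at day 60 (3 higher, 2 lower), at a false discovery rate (FDR) below 0.10. Of all tested genes, 17.3% were called higher and 15.9% lower at day 13, 36% in either direction at day 28, 15.8% higher and 15.2% lower at day 45, and 33.4% in either direction at day 60, so the members' share was near or somewhat above that of genes in general. Between successive days, 0 members were called from day 13 to 28 (1 had an unadjusted p below 0.05, and DESeq2 also called 0), where 1.96% of genes were called. From day 28 to 45, 3 members were lower and 0 higher, against 28.8% of genes, and from day 45 to 60, 3 were higher and 0 lower, against 8.6% of genes. The median log2 change of the 10 members from day 0 lay between -0.01 and 0.06. PER1 and PER3 had the largest changes of the 10, and CRY1, NR1D1 and NR1D2 were called in none of these 7 comparisons.

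**Figure D1:**
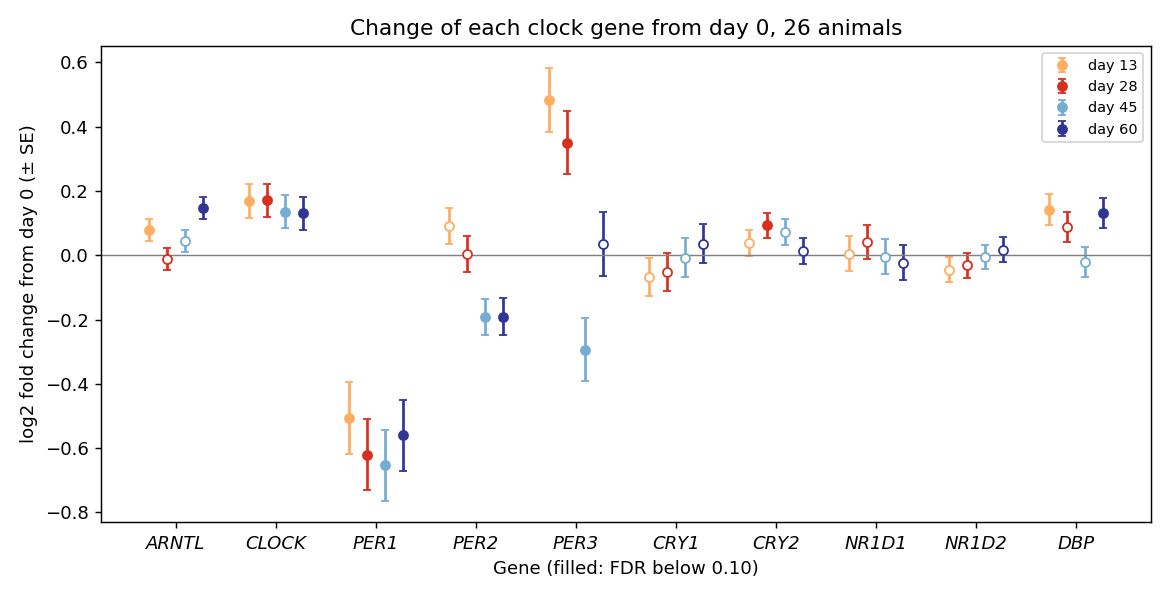
Log2 fold change of each clock gene from day 0 (vertical axis, ± SE from edgeR) at days 13, 28, 45 and 60, with filled points where the FDR was below 0.10. PER1 lies below 0 at each later day, PER3 rises at days 13 and 28 and lies below 0 at day 45, and CRY1, NR1D1 and NR1D2 have unfilled points only.

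Among the activators, CLOCK, which encodes the partner of ARNTL, was higher on each later day. Its median was 26.7 CPM on day 0 (18.7 to 34.1 over 26 animals), and 30.2, 30.8, 29.6 and 29.9 CPM on days 13, 28, 45 and 60. The ranges overlapped on all days, and 20 of 25, 22 of 26, 19 of 26 and 22 of 26 animals were above their own day 0 level. The log2 changes were 0.17 ± 0.05, 0.17 ± 0.05, 0.14 ± 0.05 and 0.13 ± 0.05 (SE), with FDRs of 0.0121, 0.00876, 0.0463 and 0.0554. With limma voom, the day 45 call was lost without animal 21 (FDR = 0.106), and the day 60 call without any 1 of animals 21, 29, 34, 39 and 43 (FDRs up to 0.127). Animal 40 had 16.6 CPM at day 60, where the study's methods give this sample the only low RNA integrity number, and animal 54 had the lowest level of that day, 15.9 CPM.

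ARNTL, the other partner of the dimer, moved less. Its medians were 17.7 CPM on day 0 (12.4 to 20.6), 18.9 on day 13, 17.2 on day 28, 17.8 on day 45 and 20.1 on day 60 (12.2 to 23.9). It rose by 0.15 ± 0.03 on the log2 scale from day 0 to day 60 (FDR = 0.000517), in 23 of 26 animals, and by 0.10 ± 0.03 from day 45 to day 60 (FDR = 0.0572), in 19 of 26. The day 13 change of 0.08 ± 0.03 passed the threshold (FDR = 0.0822, higher in 19 of 25 animals), while those at day 28 (-0.01) and day 45 (0.04) did not. With limma voom, the day 13 call was lost when any 1 of 7 animals was left out (23, 27, 40, 48, 49, 50 or 57, FDRs up to 0.168), and the call from day 45 to 60 when any 1 of 3 was (animals 3, 30 and 42, FDRs up to 0.113).

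The 3 Period genes, which encode the repressors that pair with CRY proteins, had 3 different time courses. PER1 was highest on day 0. Its level on day 0 ran from 12.5 to 97.02 CPM with a median of 20.1, and the medians of the later days were 17.6 CPM (day 13), 16.1 (day 28), 16.1 (day 45) and 16.7 (day 60), with no library of days 13 to 60 above 32.8 CPM. The day 0 animals thus ranged widely, with the lower end among the later values and the upper end above them.

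PER1 was called lower on each later day. The log2 fold changes from day 0 were -0.51 ± 0.11 (SE) at day 13 (FDR = 0.000271), -0.62 ± 0.11 at day 28 (FDR = 3.96e-06), -0.65 ± 0.11 at day 45 (FDR = 1.81e-06) and -0.56 ± 0.11 at day 60 (FDR = 3.66e-05). The number of animals below their own day 0 level was 14 of 25, 16 of 26, 19 of 26 and 19 of 26. The median animal changed by -0.10 (day 13), -0.39 (day 28), -0.35 (day 45) and -0.30 (day 60), less than the fitted means on each day. COMBO animal 6 alone went from 97.02 CPM on day 0 to 17.5 CPM on day 13. Without animal 6, the log2 fold changes by limma voom were -0.35 (day 13), -0.45 (day 28) and -0.51 (day 45), each still called. These differ from the edgeR values in method as well as in animals. In 10 other settings that kept animal 6, the changes lay between -0.58 and -0.45 (day 13), -0.66 and -0.56 (day 28), and -0.68 and -0.59 (day 45). After day 13, PER1 was not called between successive days (for example, log2 changes -0.03 from day 28 to 45 and 0.09 from day 45 to 60, FDRs 0.870 and 0.703).

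The day 0 animals with most PER1 also had most FKBP5, which encodes a chaperone of the glucocorticoid receptor that glucocorticoids induce. The 4 highest PER1 levels of that day, in animals 6 (97.02 CPM), 49 (69.9), 27 (51.4) and 42 (48.1), were in the 4 animals with the highest FKBP5, at 1155, 727, 506 and 751 CPM, against a day 0 median of 221 CPM. The fifth, animal 23 (37.29 CPM of PER1), had 220 CPM of FKBP5. Of the 18937 genes, FKBP5 was the third nearest to PER1 by Pearson's r of log2 CPM over all libraries (0.76, and 0.73 after the means of treatment, label and day were removed), after LOC107131715 (0.81) and ARMC12 (0.77). These r values describe libraries that share animals and days, and carry no test.

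**Figure D2:**
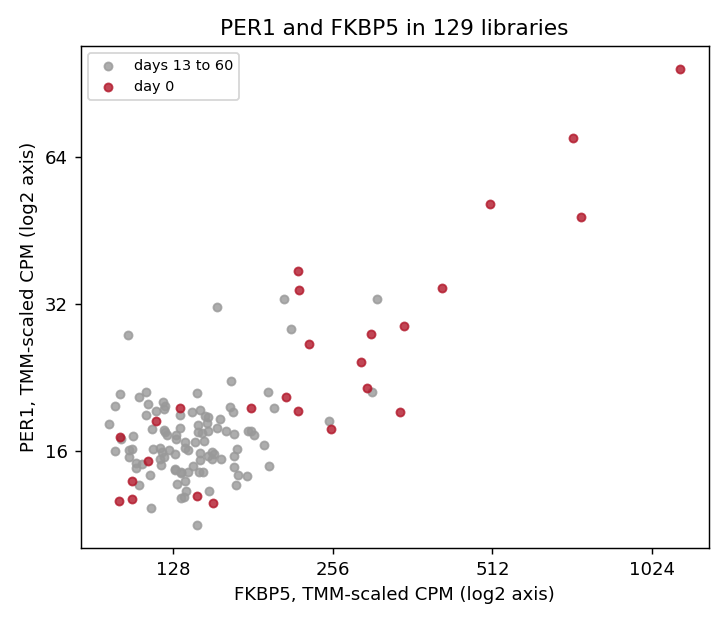
PER1 (vertical) against FKBP5 (horizontal) in all libraries, both as TMM-scaled CPM on log2 axes, with day 0 in red and the later days in grey. The day 0 libraries extend to 97.02 CPM of PER1 and 1155 CPM of FKBP5, and no later library exceeds 32.8 CPM of PER1.

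A list of 15 glucocorticoid-induced genes, chosen with earlier results of these data known, was counted beside PER1. Of these, 12 were lower and 1 higher at day 13, 13 and 1 at day 28, 11 and 2 at day 45, and 12 and 2 at day 60, with median log2 changes of -0.61, -0.85, -0.48 and -0.61, against 0.01, 0.01, -0.01 and 0.00 for all tested genes. Of all tested genes, 15.9% were called lower at day 13, 36% in either direction at day 28, 15.2% lower at day 45 and 33.4% in either direction at day 60. The summed level of the list had a median of 5052 CPM on day 0 and of 3469, 2942, 3817 and 3501 CPM on the later days. The mean log2 level of the list had an r of 0.60 with PER1 over the libraries (0.52 after the group means were removed). From day 28 to 45, 9 of the 15 rose and 0 fell, where 28.8% of all genes were called in either direction, while PER1 differed by -0.03. The part of glucocorticoids in the changes of PER1 was not tested.

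Blood cell markers moved in the same period. Of 7 neutrophil markers, 4 were lower and 1 higher at day 13, with summed medians of 1966 CPM on day 0 (1182 to 9227) and 1577, 1461, 1477 and 1317 CPM afterwards. Of 5 monocyte markers, 2 were lower at day 13 and 4 at day 60, with summed medians of 948 CPM on day 0 (446 to 2276) and 569 to 616 CPM later. Red cell markers rose, 7 of 7 at day 13, from a summed median of 226 CPM (27.1 to 6971) to 6093 CPM (161 to 84808), and platelet markers rose in 4 of 5, from 520 CPM (299 to 1254) to 706 CPM (401 to 1239). Of 5 T cell markers, 1 was called against day 0, lower at day 45. Of all tested genes, 15.9% were called lower and 17.3% higher at day 13, 15.2% lower at day 45, and 33.4% in either direction at day 60. In bulk blood, fewer cells of a type and less RNA per cell cannot be told apart, and the part of these markers in the clock genes' changes was not tested.

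PER3 rose and fell again. Its medians were 23.8 CPM on day 0 (10.03 to 57.2), 36.3 on day 13 (16.7 to 65.6), 32.3 on day 28 (9.40 to 61.9), 19.5 on day 45 (9.62 to 42.98) and 23.7 on day 60 (8.40 to 66.6). All 5 ranges overlapped, but most animals moved in 1 direction. It was higher than on day 0 in 20 of 25 animals at day 13 (log2 fold change 0.48 ± 0.10, FDR = 0.000107) and in 20 of 26 at day 28 (0.35 ± 0.10, FDR = 0.00378), lower in 21 of 26 at day 45 (-0.29 ± 0.10, FDR = 0.0194), and not called at day 60 (0.03 ± 0.10, FDR = 0.836).

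The step from day 28 to day 45 was the largest successive change of any member, -0.64 ± 0.10 for PER3 (FDR = 5.46e-07), with 24 of 26 animals lower. From day 45 to day 60 PER3 rose by 0.33 ± 0.10 (FDR = 0.0328), in 20 of 26 animals. In the step from day 28 to 45, 3 of 5 platelet markers also fell and 0 rose (summed medians 770 and 595 CPM), and their part was not tested. Of all tested genes, 28.8% were called in that step in either direction. The r of PER3 with the platelet list over all libraries was -0.02, and -0.16 after the means of treatment, label and day were removed. Of the blood cell lists, that of B cells had the r farthest from 0 (-0.37, and -0.28 after that removal). These r values mix differences between animals with changes over days, so they do not test the step. The genes nearest to PER3 were LOC100847159 (r = 0.85), LOC104975559 (0.82) and ZNF462 (0.80).

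PER2, the least counted of the 10, was lower on the last sampling days. Its medians were 2.91 CPM on day 0 (1.75 to 4.54), 3.19 on day 13, 3.05 on day 28, 2.45 on day 45 (1.58 to 4.201) and 2.54 on day 60 (1.65 to 4.63). Against day 0 it was not called at day 13 (0.09 ± 0.06, FDR = 0.242) or day 28 (0.00 ± 0.06, FDR = 0.970). At day 45 it was lower in 20 of 26 animals (-0.19 ± 0.06, FDR = 0.00691) and at day 60 in 19 of 26 (-0.19 ± 0.06, FDR = 0.00716). Its step from day 28 to 45 was -0.20 ± 0.06 (FDR = 0.00677), in the direction of PER3, with 19 of 26 animals lower. In the RefSeq gene table PER2 overlaps LOC132344956 and CRY1 overlaps LOC107132502. Whether counting used strand is not given in the sources used here, so shared reads cannot be told apart for these pairs.

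**Figure D3:**
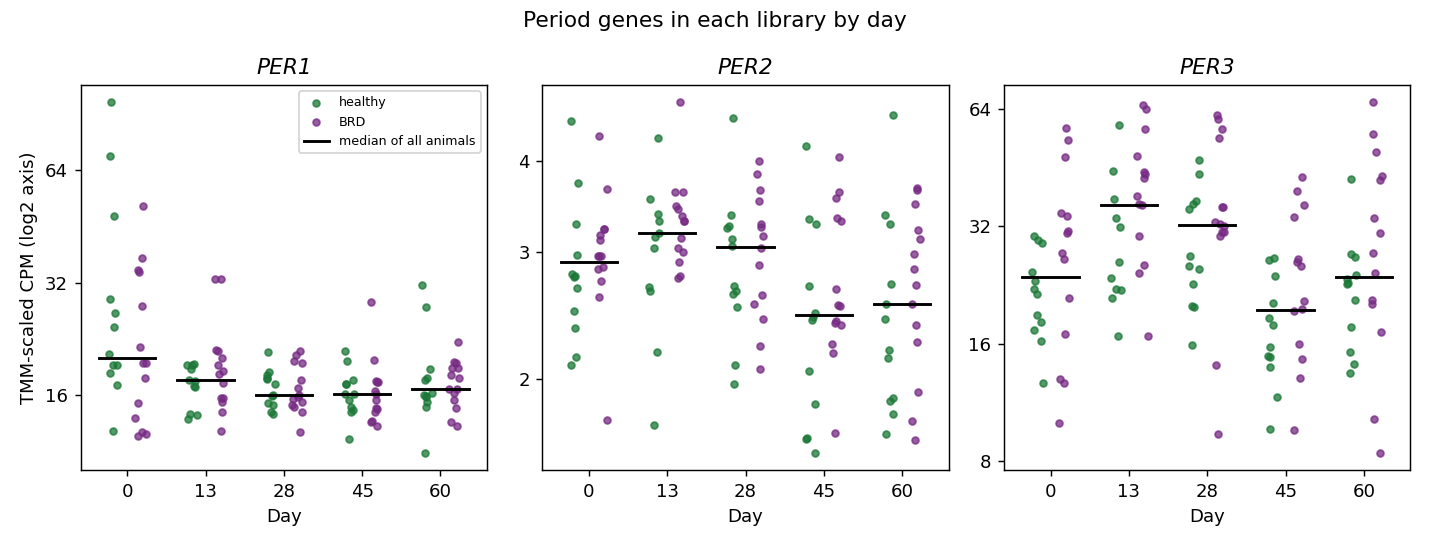
PER1, PER2 and PER3 in each library by day, as TMM-scaled CPM on a log2 axis, with healthy cattle in green, BRD cattle in purple and the median of all animals as a bar. PER1 reaches 97.02 CPM on day 0 only, PER2 medians are lowest on days 45 and 60 (2.45 and 2.54 CPM), and PER3 medians go from 23.8 to 36.3 CPM by day 13 and to 19.5 CPM at day 45.

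The cryptochromes, which encode the partners of the PER proteins in repression, were called 1 time in all between days. CRY1 had medians between 13.9 and 15.5 CPM on the 5 days, and its log2 changes from day 0 were -0.07, -0.05, -0.01 and 0.04, each with an SE of 0.06 (lowest FDR 0.434). CRY2 had medians between 35.15 and 36.4 CPM. It was higher at day 28 by 0.09 ± 0.04 (FDR = 0.0668) in 16 of 26 animals. This call was lost without animal 27 by limma voom (FDR = 0.131) and at an FDR of 0.05.

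The REV-ERB genes, whose products repress ARNTL, were not called on any day. NR1D1 had medians of 9.52, 9.23, 9.26, 9.64 and 9.70 CPM at day 0 and at days 13, 28, 45 and 60, and its log2 changes from day 0 lay between -0.02 and 0.04 with SEs of 0.05. NR1D2 had medians between 48.8 and 51.53 CPM and changes between -0.04 and 0.02 with SEs of 0.04. In the RefSeq table NR1D1 overlaps THRA, which encodes thyroid hormone receptor alpha, so reads of the 2 genes cannot be told apart without strand, and THRA was the gene nearest to NR1D1 (r = 0.67), followed by TEF (0.67), a relative of DBP.

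DBP, the output factor, was higher on days 13 and 60. Its medians were 22.97 CPM on day 0 (16.5 to 32.3), 25.9 on day 13 (17.9 to 33.8), 23.6 on day 28, 22.6 on day 45 and 24.4 on day 60 (18.1 to 40.9). It rose by 0.14 ± 0.05 at day 13 (FDR = 0.0178), in 19 of 25 animals, and by 0.13 ± 0.05 at day 60 (FDR = 0.0281), in 17 of 26. Between successive days it fell from day 28 to 45 (-0.11 ± 0.05, FDR = 0.0801, lower in 18 of 26) and rose from day 45 to 60 (0.15 ± 0.05, FDR = 0.0364, higher in 21 of 26). The first of these steps was not called without animal 34 by limma voom (FDR = 0.105). PER3 and DBP were thus each called lower from day 28 to 45 and higher from day 45 to 60. PER2 was called only in the first of these steps and ARNTL only in the second.

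The second question was whether BRD and healthy cattle differed in these genes. At the 5 days, 0 of 50 results (10 members on 5 days) passed the threshold by edgeR, and DESeq2 also called 0. An unadjusted p below 0.05 was found in 3 of the 50 (6%), against 5.48% of the results of all tested genes. Of all results of a gene at a day, edgeR called 0.00528%, with 0.0158% of genes on day 0, 0% at days 13 and 45 and 0.00528% at days 28 and 60.

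PER1 on day 0 had the smallest p of the 50. Healthy cattle had a median of 22.49 CPM (12.9 to 97.02, n = 12) and BRD cattle of 19.6 CPM (12.5 to 51.4, n = 14), which overlapped widely. The log2 difference, BRD minus healthy, was -0.55 ± 0.17 (edgeR FDR = 0.311). The programs went different ways, with means of 17.7 ± 8.67 (SD, n = 3) in BRD and 47.53 ± 35.17 (n = 4) in healthy COMBO cattle, 20.5 ± 9.90 (n = 4) and 32.21 ± 26.1 (n = 4) CPM in AAC cattle, and 27.9 ± 13.4 (n = 7) and 20.9 ± 3.81 (n = 4) CPM in INR cattle. By limma voom the difference was -0.44 with all animals and -0.28 without animal 6. Of the 5 animals with most PER1 on day 0, 3 were healthy and 2 had the BRD label. From day 13 on, the difference lay between -0.06 and 0.11 with SEs of 0.17.

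The change of PER1 from day 0 was also fitted within each label. In healthy cattle the log2 changes were -0.83 ± 0.16, -0.83 ± 0.16, -0.88 ± 0.16 and -0.76 ± 0.16 at days 13, 28, 45 and 60, with 7 of 11, 9 of 12, 10 of 12 and 9 of 12 animals lower, and PER1 was called lower on each of these days (FDR from 4.71e-05 to 0.000491 by edgeR). Of all genes, 11%, 21%, 8.55% and 11.6% were called there in either direction. In BRD cattle they were -0.23 ± 0.15, -0.43 ± 0.15, -0.44 ± 0.15 and -0.37 ± 0.15, with 7, 7, 9 and 10 of 14 animals lower. PER1 was not called at day 13 there (edgeR FDR = 0.310), where 8.35% of genes were called lower, and was called lower at days 28, 45 and 60 (edgeR FDR = 0.0341, 0.0248 and 0.0742), where 20% of genes were called in either direction, 10.7% lower and 19.6% in either direction. By limma voom, the healthy changes without animal 6 were -0.56, -0.54, -0.61 and -0.56, each still called. The healthy changes with all animals given above are edgeR's, so the method differs too. The BRD call was lost at day 28 without any 1 of animals 16, 23, 27, 39 and 41, at day 45 without animal 23 or 27, and at day 60 without any 1 of 14 of the 26 animals (FDRs up to 0.246). The difference between the changes of both labels was 0.60 ± 0.22 at day 13 and 0.39 to 0.44 at the later days, and it did not pass the correction on any day (edgeR FDR = 1 at day 13). By limma voom it was 0.57 at day 13 and 0.38 at day 28 with all animals, and 0.38 and 0.15 without animal 6. Of the 40 such results of the members, 0 were called by edgeR (2 had an unadjusted p below 0.05) or DESeq2. Of all tested genes, edgeR called 0.

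PER3 was higher in BRD cattle in each of the 5 fits, without passing the test. The log2 differences were 0.32, 0.52, 0.28, 0.46 and 0.49 at days 0, 13, 28, 45 and 60, with SEs of 0.24 to 0.25 and FDRs of 0.716 and above. The p was 0.0430 at day 13 and 0.0492 at day 60 before adjustment. The BRD medians were 29.1, 40.5, 32.7, 22.96 and 29.03 CPM, and the healthy medians 21.8, 25.9, 26.1, 16.8 and 22.8 CPM, with overlapping ranges on each day. By program, the AAC means were higher in BRD cattle on each day (46.5 ± 17.03 against 24.3 ± 2.95 CPM at day 28, SD, n = 4 each). At day 28 the INR means were 35.8 and 35.3 CPM, and the COMBO means were lower in BRD cattle there (27.34 against 29.4 CPM) and on day 0 (18.8 against 23.4 CPM). The same animals were sampled on the 5 days, so the days do not repeat the result independently.

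**Figure D4:**
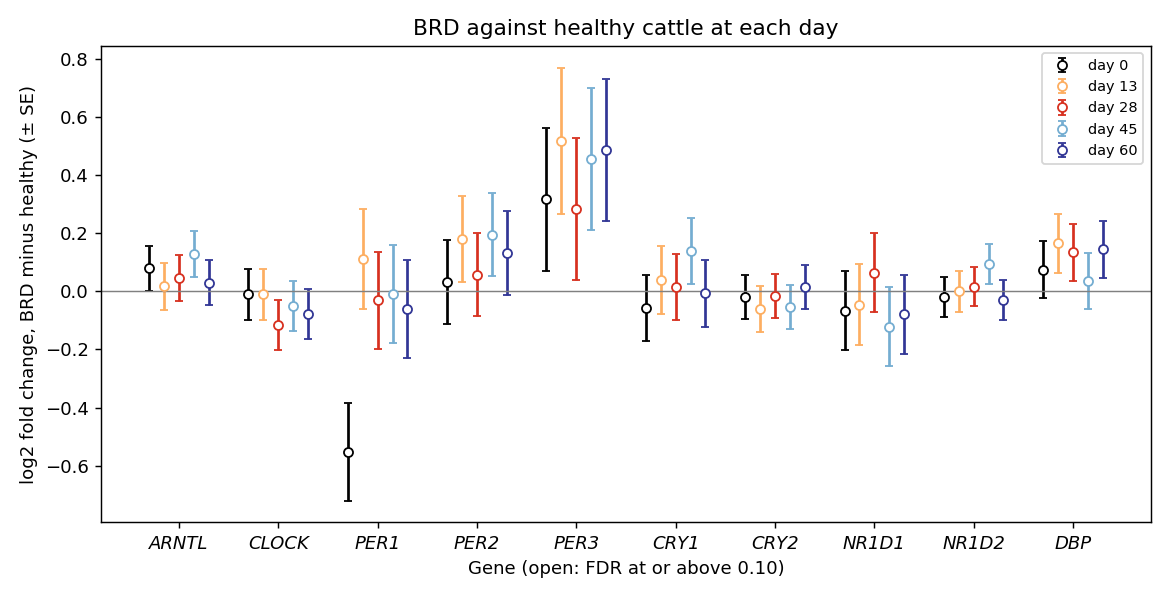
Log2 fold change of BRD over healthy cattle (vertical axis, ± SE from edgeR) for each clock gene at each of the 5 days, averaged over the 3 programs. All points are open, which marks an FDR of 0.10 or more, and PER1 on day 0 (-0.55) and PER3 lie farthest from 0.

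Among the COMBO cattle, healthy animals were in pen 5 and BRD animals in pen 6 on day 0, so pen and label cannot be told apart there. In the pens that held both labels (8 healthy and 7 BRD animals), with pen as a covariate, 0 of 50 member results were called by edgeR and 8 had an unadjusted p below 0.05. At that p, ARNTL was higher in BRD cattle on days 0, 28, 45 and 60. CLOCK was lower at days 28, 45 and 60, and NR1D1 on day 0. The lowest FDR of these was 0.201, and the days share the same animals. The share of all tested genes with such a p is not given for this fit. That fit called 2.36% of all genes on day 0, 0.00528% at day 13, 0.0898% at day 28 and 0% at days 45 and 60. The PER1 difference of day 0 was -0.11 ± 0.23 in it. In the fit of all animals without pen, the remaining 8 members differed between the labels by at most 0.20 in size at any day (log2 scale). With pen as a covariate, the largest difference of these 8 was -0.38 ± 0.16, for NR1D1 on day 0 (FDR = 0.201). The day on which an animal became ill was not used here.

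The third question was whether the mineral programs differed. Over 3 pairs of programs and 5 days, 0 of 150 member results passed the threshold by edgeR, 6 had an unadjusted p below 0.05 (4%, against 6.60% of the results of all tested genes), and DESeq2 called 1. The share of all tested genes that DESeq2 called is not given here, so its 1 call cannot be set against genes in general. By edgeR, 0.106% of all results of a gene at a day were called. The shares were 0.565%, 0.929% and 0.0317% of genes for AAC minus COMBO at days 0, 13 and 28, 0.0422% and 0.0106% for AAC minus INR at days 13 and 28, 0.00528% for COMBO minus INR at day 60, and 0% in the other 9 comparisons. Each pen held animals of 1 program on day 0, with 2 pens for AAC, 2 for COMBO and 3 for INR, and by the study's methods the steers were later moved between pens. Pen was not a term in these comparisons.

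CRY2 on day 0, before the feeding period, came closest. Its level was 33.5 to 55.6 CPM in AAC cattle (median 37.8, n = 8), 28.7 to 35.8 CPM in COMBO cattle (median 32.5, n = 7) and 24.4 to 41.1 CPM in INR cattle (median 34.5, n = 11), so that the AAC and COMBO ranges overlapped at one end. The AAC minus COMBO difference was 0.32 ± 0.10 (edgeR FDR = 0.127). DESeq2 gave an FDR of 0.0742 and a stricter low-count filter 0.0969. At days 13 to 60, CRY2 medians of the 3 programs lay between 33.9 and 37.1 CPM.

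By edgeR, the other members were not called in any pair of programs. Their unadjusted p was below 0.05 for AAC minus INR in PER1 at day 13 (-0.43), and in ARNTL and CRY1 at day 45 (0.19 and 0.27), among others. The largest difference in size was -0.44 on the log2 scale, for PER3 (AAC minus COMBO at day 13), and the median size over the 150 results was 0.09. Changes from day 0 differed between programs in 0 of 120 member results by edgeR and DESeq2. By edgeR, 10 had an unadjusted p below 0.05 (8.33%, against 6.01% over all tested genes). Of all gene results, edgeR called 0.0959% (1.14% and 0.0106% for AAC minus COMBO at days 13 and 28, and 0% in the other 10 comparisons).

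The share of the variation that lay between animals differed widely among the members. Of the sum of squares of log2 CPM over all libraries, 74.51% lay between animals for NR1D1, 66.6% for ARNTL, 65.4% for PER2, 63.1% for PER3, 59.195% for DBP, 58.1% for CRY2, 53.9% for CRY1, 52.2% for NR1D2, 37.4% for CLOCK and 27.02% for PER1, against a median of 42.1% over all tested genes. The share between days was 19.1% for PER1 and 16.1% for PER3, and 0.42% for NR1D1, against a median of 5.66%. PER1 therefore had the smallest share between animals and the largest between days of the 10, and NR1D1 the reverse. The shares cover 26 animals but 5 days, and per degree of freedom the mean square between days was above that between animals for 4 members, PER1 (4.43 times), PER3 (1.59), CLOCK (1.25) and PER2 (1.06). These values describe the data and carry no test.

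The range of the animals' own means over the 5 days was widest for PER3, from 13.25 CPM in animal 40 to 54.9 CPM in animal 41, a 4.14-fold range. For PER1 it was 13.7 to 35.5 CPM, a 2.597-fold range that rests on the day 0 library of animal 6, whose mean over the other days was 20.1 CPM. Without that library the PER1 range was 2.05-fold, below those of PER2 (2.34-fold, 1.91 CPM in animal 48 to 4.45 CPM in animal 30) and NR1D1 (2.29-fold, 6.71 CPM in animal 29 to 15.4 CPM in animal 17). The narrowest ranges were 1.46-fold, for CLOCK (23.51 to 34.22 CPM) and NR1D2 (43.2 to 62.9 CPM). Animal 30 had the highest mean of PER2, NR1D2 and DBP (34.01 CPM).

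The last question was how the loop genes varied together over animals. ARNTL was set against each of the other 9 members at each day, which gave 45 relations over 25 or 26 animals, with 2-sided permutation tests and Benjamini-Hochberg adjustment over the 45. By Pearson's r, 9 relations passed an FDR of 0.10, and by Spearman's rho 13 did. Of the 9, 4 were with CRY1, 3 with NR1D1 and 2 with NR1D2.

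ARNTL and CRY1 varied in the same direction over the animals of a day. The values were r = 0.34 and rho = 0.30 on day 0 (FDRs 0.226 and 0.317), r = 0.72 and rho = 0.69 on day 13 (FDRs 0.000675 and 0.00259), r = 0.63 and rho = 0.75 on day 28 (0.00975 and 0.00045), r = 0.58 and rho = 0.62 on day 45 (0.0121 and 0.00774), and r = 0.80 and rho = 0.75 on day 60 (0.000675 and 0.00045). Without the 2 animals farthest from the ARNTL median, r was 0.60, 0.69, 0.59 and 0.65 on days 13 to 60, and 0.03 on day 0. Within healthy and within BRD cattle, r on days 13 to 60 was 0.54 to 0.84 and 0.63 to 0.81.

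ARNTL and NR1D1 had opposite levels on each of the 5 days. The r was -0.47 on day 0, -0.61 on day 13, -0.41 on day 28, -0.44 on day 45 and -0.59 on day 60, with FDRs of 0.0720, 0.0121, 0.156, 0.118 and 0.0121. The rho was -0.41, -0.56, -0.45, -0.44 and -0.55, with FDRs of 0.128, 0.0264, 0.0803, 0.0888 and 0.0264. Without the 2 farthest animals r lay between -0.59 and -0.32, within healthy cattle between -0.72 and -0.36, and within BRD cattle between -0.75 and -0.24. The related NR1D2 had the other sign, with r = 0.47 on day 45 and 0.58 on day 60 (FDRs 0.0720 and 0.0121; rho 0.49 and 0.70, FDRs 0.0546 and 0.00225). CLOCK had a negative r with ARNTL on each day (-0.39 to -0.15), with no FDR under 0.175 by r, and with FDRs by rho of 0.0275 on day 0 and 0.0706 on day 45. Without the 2 farthest animals its r lay between -0.32 and 0.07, so the sign was not kept on day 60. The remaining relation called by rho was with PER1 on day 45 (rho = -0.47, FDR = 0.0706, r = -0.36).

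**Figure D5:**
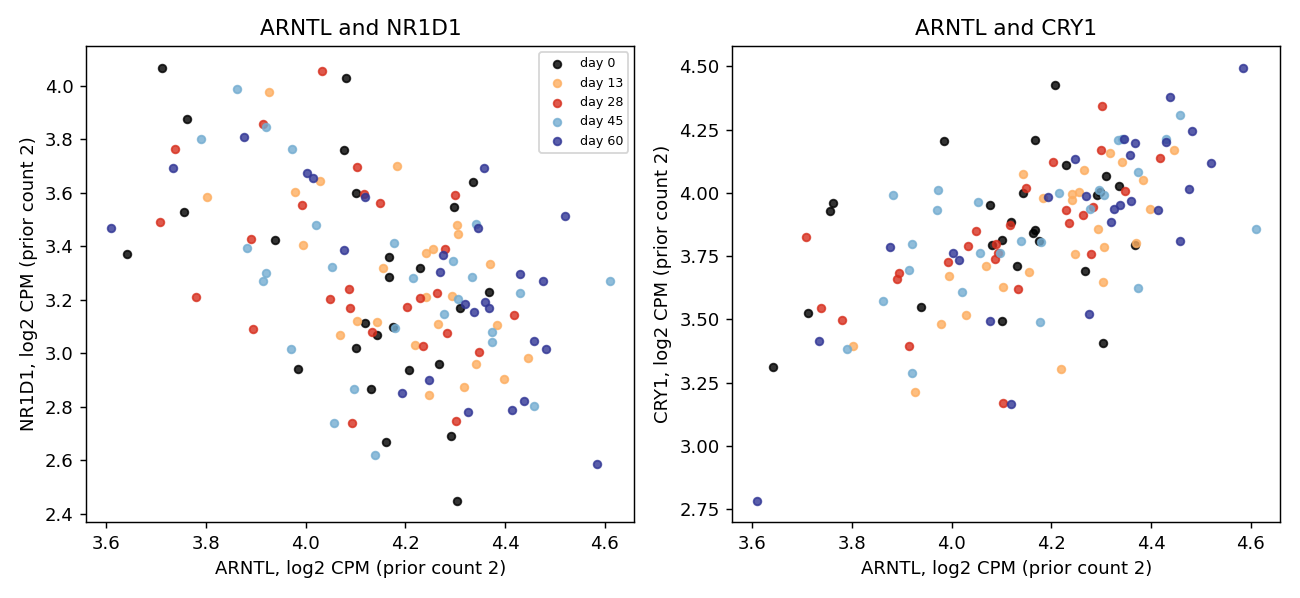
NR1D1 (left) and CRY1 (right) against ARNTL in all libraries, as log2 CPM with a prior count of 2, coloured by day. NR1D1 is lower where ARNTL is higher on each day (r -0.61 to -0.41), and CRY1 is higher (r 0.34 to 0.80).

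Blood cell markers also varied with these genes. Over all libraries, ARNTL had an r of 0.54 with the mean log2 level of 5 T cell markers and of -0.58 with that of 6 B cell markers. CRY1 had -0.53 with the B cell markers and NR1D1 had 0.44, while CLOCK had -0.55 with the T cell markers. The B cell list had summed levels of 753 to 3345 CPM over the animals on day 0, and the T cell list of 525 to 1273 CPM. The part of these markers in the relations above was not tested.

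Among the 45 pairs of members, the median r after removal of the group means was 0.10. The highest were PER2 with NR1D2 (0.59), ARNTL with CRY1 (0.56) and NR1D1 with DBP (0.51), and the lowest CLOCK with CRY2 (-0.45) and ARNTL with NR1D1 (-0.42). The genes nearest to the other members were TIMP3 (r = 0.77) for ARNTL, RIF1 (0.92), TAF1 (0.91) and ATM (0.90) for CLOCK, SIDT1 (0.66) for PER2, PITPNC1 (0.76) for CRY1, ITGB2 (0.74) for CRY2, AGPS (0.72) for NR1D2 and INPP5E (0.63) for DBP. No other member was among the 3 nearest genes of any of the 10.

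Around the core loop, a list of 36 clock-associated genes was counted, of which 33 were tested (ARNTL2, FBXL21 and PPARGC1A were not). Against day 0, 6 were higher and 5 lower at day 13, 7 and 7 at day 28, 5 and 7 at day 45, and 6 and 4 at day 60. These shares were near those of all tested genes given above. From day 28 to 45, 10 rose and 3 fell, where 28.8% of all tested genes were called in either direction.

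The casein kinases and other kinases that phosphorylate PER and CRY proteins changed by small amounts, PRKAA2 apart. CSNK1D was lower at each later day (log2 changes -0.15, -0.15, -0.06 and -0.09), CSNK1A1 at days 13, 28 and 60 (-0.12, -0.13 and -0.06), and PRKAA1, a catalytic subunit of AMP-activated kinase, at each later day (-0.14, -0.17, -0.15 and -0.15). GSK3B was higher at days 28, 45 and 60 (0.08, 0.18 and 0.11). At day 45, PRKAA2 was lower (-0.42) and CSNK2A1 was higher (0.05). PRKAA2 had few counts, with a median of 0.26 CPM over the libraries. Outside the kinases, TIMELESS was higher at day 45 (0.10).

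Larger changes were seen in transcriptional regulators tied to the loop. NFIL3, which competes with DBP at D-box elements, was lower at days 13 (-0.48) and 28 (-0.66), and rose from day 28 to 45 (0.43). BHLHE40, a repressor of ARNTL and CLOCK activity, was higher at each later day (0.15, 0.22, 0.40 and 0.35), and its relative BHLHE41 at day 28 (0.66). CIART, another repressor of that dimer, was higher at days 13, 28 and 45 (0.27, 0.47 and 0.42) and fell from day 45 to 60 (-0.24). RORA and RORB, which encode activators of ARNTL that compete with the REV-ERBs, were called 1 time each, RORA at day 13 (0.17) and RORB at day 28 (-1.46). RORB was barely counted, with counts summing to 100 over the 26 libraries of day 0 (13 of them at 0) and 37 over those of day 28 (14 at 0). NAMPT, which makes the precursor of the cofactor of SIRT1, was lower at each later day (-0.28, -0.48, -0.31 and -0.50). Of the D-box factors, HLF was lower at day 45 (-0.14) and TEF was called on none of these days.

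Other called genes of the list act in protein turnover, chromatin or replication. SKP1 was higher at days 13, 28 and 60 (0.13, 0.16 and 0.20), WDR5 at days 28 and 60 (0.06 and 0.09) and SFPQ at days 13 and 60 (0.13 and 0.11). TIPIN was higher at days 13 and 28 (0.16 and 0.18) and lower at day 45 (-0.14), in the order of PER3, and CREBBP was lower at day 28 (-0.11). From day 28 to 45, BHLHE40, CREBBP, CSNK1A1, CSNK1D, CSNK2A1, CUL1, EP300, FBXW11, GSK3B and NFIL3 rose and PRKAA2, TIPIN and WDR5 fell. From day 45 to 60, WDR5 rose and CIART and NONO fell, and from day 13 to 28 BHLHE41 alone was called (0.80).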

How the data were processed

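Whole blood in Tempus tubes gave stranded mRNA libraries from 26 steers. The authors used Trimmomatic 0.39 for trimming, HISAT2 for alignment against ARS-UCD1.3 and StringTie 2.2.0 for assembly. The values they deposited are gene counts without normalization, derived from coverage and read length by prepDE rather than tallied. Groups came from the labels, and all columns were used.

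The members, gene lists and tests were chosen with earlier results of these data known. All members are named, called genes of the clock-associated list are named except 2 that are not reported here, and for each member the 3 genes of highest r.

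In R 4.3.3, edgeR 4.0.16 was run on 18937 genes with quasi-likelihood F-tests, 1 dispersion for all genes and TMM scaling, the genes being those kept by filterByExpr, with Benjamini-Hochberg adjustment within a comparison and a threshold of 0.10. Day comparisons had the animal as a block, since the same animal was bled each day. Labels and programs were compared in a fit of 30 means (treatment, label and day), and differences of changes with animal, day and an interaction. Fold changes are edgeR's, and log2 CPM had a prior count of 2. Correlations used 100000 resamples. Alternatives used DESeq2 1.42.0 and limma 3.58.1, and the edgeR step was tested on simulated data. The RefSeq table (ARS-UCD2.0) gave names and neighbours only, and figures were drawn with matplotlib 3.10.9.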

Additional observations from a re-analysis of the deposited data

Results flagged for a closer look

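In groups of 1 program, label and day with 4 to 7 animals, 13 of 240 gene and group combinations (5.42%) had 1 animal far from the rest by Dixon's criterion. Chance flags about 1 in 20 groups, so this number is near what chance gives. No difference between 2 groups' changes passed its test. The values follow, as TMM-scaled CPM.

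PER2 was flagged 4 times. Healthy AAC animal 46 had 3.27 CPM at day 45 and 3.27 CPM at day 60, where the other animals of its group had 1.65 to 1.85 and 1.68 to 1.89 CPM. BRD AAC animal 21 had 3.34 CPM at day 45 (others 2.37 to 2.54), and BRD INR animal 17 had 4.82 CPM at day 13 (others 2.76 to 3.36).

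Healthy INR animal 10 was flagged for 3 results. Its CRY1 level was 11.5 CPM on day 0 (others 15.4 to 15.998) and 10.6 CPM at day 60 (others 17.3 to 17.7), and its PER1 level was 26.5 CPM on day 0 (others 18.37 to 19.3).

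CLOCK was flagged 3 times. BRD INR animal 40 had 16.6 CPM at day 60 (others 29.69 to 36.8), in the library with the low RNA integrity number. BRD AAC animal 9 had 27.4 CPM at day 28 (others 28.7 to 28.99), and healthy AAC animal 49 had 37.6 CPM at day 45 (others 29.6 to 30.8).

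DBP was low in BRD AAC animal 31 on day 0 (23.3 CPM, others 28.58 to 29.03) and high in healthy AAC animal 48 at day 60 (30.7 CPM, others 20.6 to 22.3). ARNTL was high in healthy COMBO animal 57 at day 45 (24.4 CPM, others 15.6 to 16.6).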

How the results depend on the processing

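Without the replicate block (30 means in place of the animal term), 3 members were called at day 13 against 5, 1 at day 45 against 4, 2 at day 60 against 5, 1 from day 28 to 45 against 3 and 0 from day 45 to 60 against 3. The CRY2 call at day 28 was also lost. Calls over all tested genes fell too, from 6289 to 3995 at day 13 and from 6825 to 4025 at day 28. They fell from 5861 to 2823 at day 45 and from 6318 to 3382 at day 60. Between successive days they fell from 5452 to 2601 (day 28 to 45) and from 1629 to 314 (day 45 to 60). The animal as a random block with limma voom (consensus correlation 0.320) changed no call for labels or programs. DESeq2 and a stricter low-count filter each called 1 result for AAC minus COMBO against 0 (CRY2 on day 0), as did limma voom without animal 16. With each animal left out in turn (limma voom), the members called ranged from 4 to 5 at day 13, 3 to 5 at day 28, 4 to 5 at day 45, 4 to 5 at day 60, 2 to 3 from day 28 to 45, 2 to 3 from day 45 to 60 and 0 to 1 for AAC minus COMBO. They were 0 from day 13 to 28, between the labels, for the other pairs of programs and for differences of changes. In 10 other settings (RLE factors, trended dispersion, DESeq2, FDR below 0.05, both filters, limma voom, no block and both sets of left-out libraries), 221 of 240 results of a single member kept direction and call and 19 kept direction only. The edgeR models were not refitted for each left-out animal. RLE factors or plain library totals moved each median level by less than 1 SD. The ARNTL relations called were 9 with a prior count of 0.5 and 7 on deviations from group means, against 9. Groups of 3 to 7 animals limit the program comparisons.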

Other observations

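NPAS2, a paralogue of CLOCK that can pair with ARNTL, was singled out from the clock-associated list after its values were seen. Of its sum of squares, 93.8% lay between animals and 0.26% between days, a share between animals above that of 99.45% of tested genes. The mean over days was 16.9 CPM in animal 30, 15.1 CPM in animal 23, 14.1 CPM in animal 17 and 7.59 CPM in animal 10, and at most 2.65 CPM in the other animals. In these 4 animals, all in the INR program, 2 healthy and 2 with the BRD label, the 5 days lay between 14.9 and 17.7, 13.6 and 16.8, 11.98 and 16.5, and 6.39 and 8.07 CPM. The groups of values did not overlap on any day, and the cause was not tested. Animal 30 also had the highest mean PER2, NR1D2 and DBP, and animal 17 the highest mean NR1D1.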
